A study of Equus caballus with 24 samples.

Results

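Pituitary and epiphyseal tissues of Debao ponies (DPs) and Mongolian horses (MHs) were examined for 7 genes of the somatotroph and lactotroph axis: the growth hormone gene GH, the prolactin gene PRL, the transcription factor gene POU1F1, and the receptor genes GHRHR, GHSR, DRD2 and PRLR. The genes were taken by their symbols in the deposited tables, where each symbol named a single gene, and made up 7 of the 24232 genes with counts. The DP is a native pony and the MH a taller native horse, and every library came from a female. The 24 libraries formed 8 groups of 3: pituitary of juvenile DPs (DPPJ), adult DPs (DPPA), juvenile MHs (MHPJ) and adult MHs (MHPA), and the epiphysis of a long bone, its end beyond the growth plate, in the same order (DPLBJ, DPLBA, MHLBJ and MHLBA). The labels name no treatment and no genetic change in any group, and they give the stage but no age in years. RNA came from ground tissue, so each library holds all the cells of its piece, and fewer cells of a type cannot be told apart from less RNA per cell. Nothing in the labels ties a pituitary library to a long bone library of the same animal, and p-values measure the spread between the libraries of a group.

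Growth hormone is made by somatotrophs and prolactin by lactotrophs of the anterior pituitary. Both cell types, together with thyrotrophs, arise under the transcription factor POU1F1, which also drives the promoters of GH, PRL and GHRHR. GHRHR is the receptor through which hypothalamic growth hormone-releasing hormone stimulates somatotrophs, and GHSR is the receptor of ghrelin, which stimulates them as well. DRD2 is the dopamine receptor through which the hypothalamus holds back prolactin secretion. PRLR is the prolactin receptor and, unlike the others, is found in many tissues, including liver, mammary gland, bone cells and the choroid plexus of the brain.

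Counted reads numbered from 11433209 to 23573036 in the pituitary libraries and from 11616518 to 27007342 in those of the long bone. The tissue labels were checked against defining genes. The 5 listed bone and cartilage genes summed to between 279 and 13696 RPKM (reads scaled by gene length and library size) in the long bone libraries and to between 3.59 and 48.3 RPKM in the pituitary libraries. The 6 listed genes of other anterior pituitary cells summed to between 3841 and 23495 RPKM in 7 pituitary libraries, namely the 3 of DPPJ and replicates 2 and 3 of DPPA and MHPA. In the other 5, which are all of MHPJ, DPPA replicate 1 and MHPA replicate 1, they summed to between 0.72 and 14.9 RPKM, and TSHB, the beta chain of thyrotropin, was at 0 in each. Most results below turn on this split, and the adult libraries concerned were therefore also left out.

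GH (ENSECAG00000009154) was among the most abundant transcripts of the pituitary. Its RPKM was 13174, 17634 and 22757 in DPPJ replicates 1 to 3. It was 6.47, 10166 and 7686 in DPPA, 0.33, 6597 and 13848 in MHPA, and 0, 3.36 and 0.12 in MHPJ. GH stood at rank 1 of all genes by RPKM in DPPJ replicates 2 and 3 and at rank 5 in DPPJ replicate 1, and at ranks 3 to 6 in the 4 adult libraries with high hormone levels. It took 1.32% of the counted reads in DPPJ replicate 1 (exact Clopper-Pearson 95% interval 1.31 to 1.33), 1.79% in replicate 2 (1.78 to 1.80) and 2.35% in replicate 3 (2.34 to 2.35). In MHPJ the same gene had 0, 41 and 2 reads, and the count of 0, read as at most 3 reads, leaves room for 0.186 CPM, a read count scaled to library size. The 3 MHPJ libraries were all below every DPPJ library, while in each adult group replicate 1 lay far below the other 2.

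PRL (ENSECAG00000000114) followed the same libraries. Its RPKM was 13611, 9595 and 7002 in DPPJ, 1.16, 2547 and 1603 in DPPA, 0.41, 2673 and 12212 in MHPA, and 0.15, 0.79 and 0 in MHPJ. In reads, these were 282660, 215425 and 172434 in DPPJ against 3, 11 and 0 in MHPJ. PRL stood at rank 4 or 5 in the DPPJ libraries and in MHPA replicate 3, at rank 18 in MHPA replicate 2, and at ranks 31 and 39 in DPPA replicates 2 and 3.

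**Figure D1:**
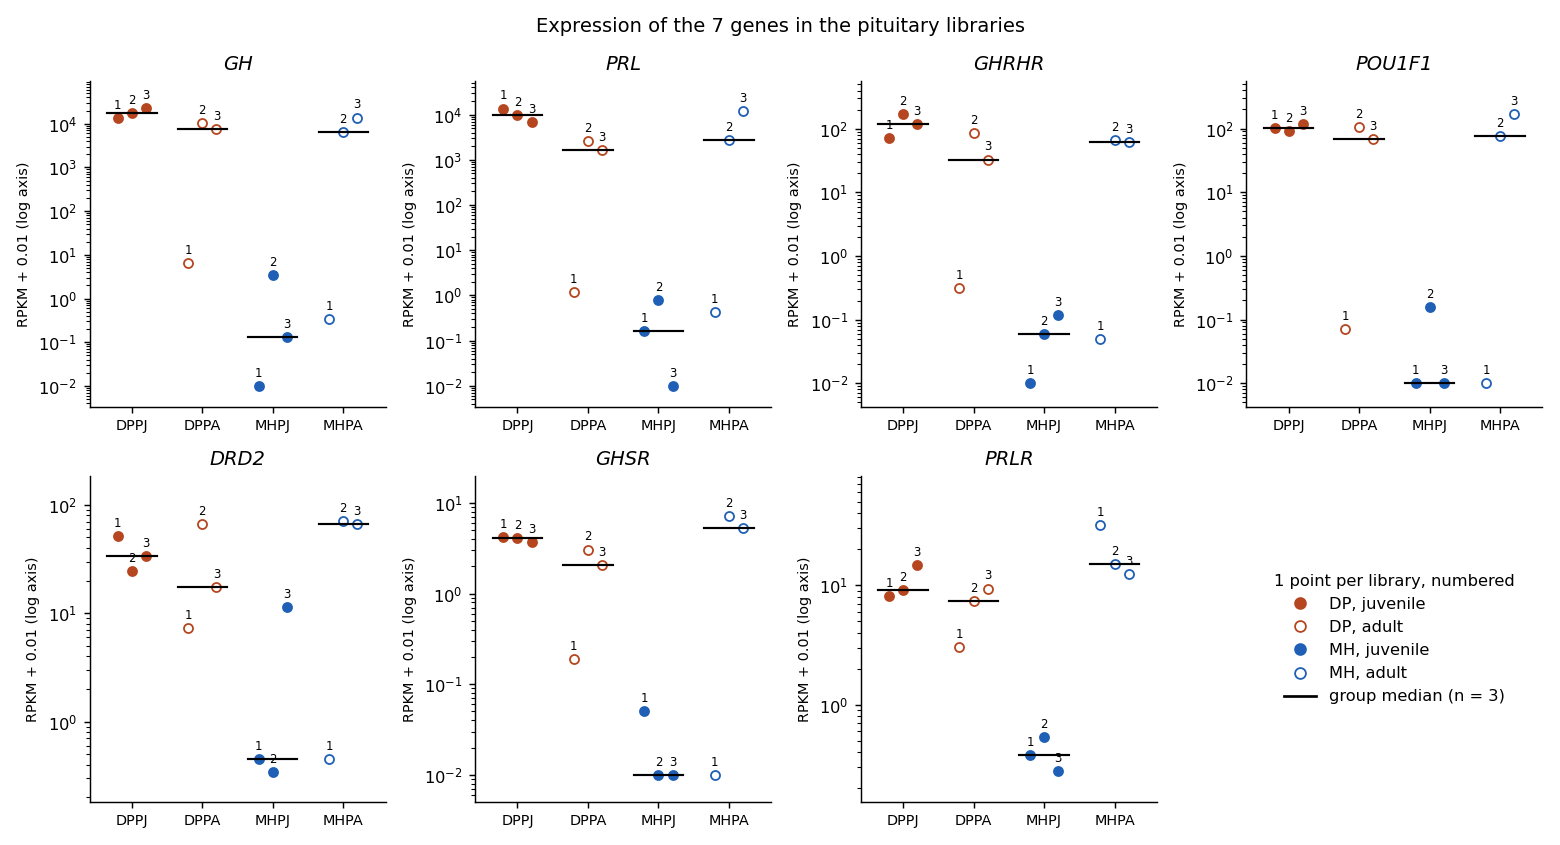
Level of each of the 7 genes in the 12 pituitary libraries, as RPKM + 0.01 on a log axis, by group. Each point is a library with its replicate number and the black bar is the group median (n = 3); for GH, PRL, GHRHR, POU1F1 and GHSR the MHPJ libraries and replicate 1 of both adult groups lie far below the rest, for DRD2 replicate 1 of DPPA and replicate 3 of MHPJ lie between, and for PRLR MHPA replicate 1 is the highest library at 32.2 RPKM.

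POU1F1 (ENSECAG00000009205) had 3116, 2954 and 4263 reads in DPPJ, which is 103, 90.4 and 119 RPKM. It had 2, 4024 and 2135 reads in DPPA, 0, 1867 and 4013 in MHPA, and 0, 3 and 0 in MHPJ. The libraries of DPPJ were within a narrow range, and those with 0 to 3 reads were the same 5 in which GH and PRL were low.

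GHRHR (ENSECAG00000015021), the receptor for growth hormone-releasing hormone, had 71.0, 173 and 120 RPKM in DPPJ, 0.30, 86.9 and 32.9 in DPPA, and 0.04, 65.6 and 62.5 in MHPA. In MHPJ its reads numbered 0, 1 and 3. GHSR (ENSECAG00000017722), the ghrelin receptor, was the lowest of the 7 genes per length where hormones were high, with 4.22, 4.06 and 3.73 RPKM in DPPJ, 0.18, 3.05 and 2.04 in DPPA, and 0, 7.08 and 5.33 in MHPA. Its reads in MHPJ numbered 1, 0 and 0. Both receptors thus split the pituitary libraries as the hormones did, and the DPPJ libraries of GHSR were the most even of any gene here, at 120, 125 and 126 reads.

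DRD2 (ENSECAG00000013567), the dopamine receptor of lactotrophs, did not follow the hormones in every library. It had 51.1, 24.4 and 33.7 RPKM in DPPJ, 7.37, 67.0 and 17.4 in DPPA, 0.44, 70.3 and 66.1 in MHPA, and 0.44, 0.33 and 11.3 in MHPJ. In reads, MHPJ replicate 3 held 371 and DPPA replicate 1 held 319, although POU1F1 had 0 and 2 reads there. Dopamine receptors are also made by neurons, and beside these values the 7 listed neuronal genes summed to 1262 RPKM in MHPJ replicate 3 and to 3091 RPKM in DPPA replicate 1. MHPJ replicate 1 also had a neuronal sum of 1198 RPKM, with 15 reads of DRD2. The part of neurons in the DRD2 level was not tested.

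PRLR (ENSECAG00000009483) was the exception among the 7 genes. Its RPKM was 8.07, 9.15 and 14.7 in DPPJ, 3.05, 7.41 and 9.39 in DPPA, 32.2, 15.1 and 12.4 in MHPA, and 0.37, 0.53 and 0.27 in MHPJ. The highest value of all 24 libraries came from MHPA replicate 1, where PRL had 7 reads and PRLR 1417. The prolactin receptor was thus low in MHPJ, as the hormones were, but in the adult libraries with few hormone reads it stood at 3.05 and 32.2 RPKM.

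Ordered by the median RPKM over the 8 groups, GH, PRL, GHRHR and POU1F1 were highest in DPPJ, and DRD2, GHSR and PRLR were highest in MHPA. All 4 pituitary groups stood above the 4 long bone groups only for DRD2, while MHPJ came last of the 8 groups for GH, PRL and PRLR. Most neighbours in this order overlapped in their libraries. The exceptions were DPPJ above DPPA for GH and GHSR, DPPJ above MHPA for GHRHR, and MHPJ above DPLBJ for DRD2.

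The first comparison asked whether the hormone axis differed between the breeds at the juvenile stage. A differentially expressed gene (DEG) had P under 0.05 before adjustment and changed by more than 2-fold in edgeR's quasi-likelihood test, the thresholds of the study, and 20.3% of all tested genes were DEGs here, 7.6% being higher in DPs. GH, PRL, GHRHR, POU1F1, GHSR and PRLR were DEGs with higher expression in DPPJ than in MHPJ. DRD2 was not, and the libraries of the 2 groups did not overlap for any of the 7 genes, as for 40.4% of all tested genes. GH, PRL, GHRHR, POU1F1 and GHSR passed the filter on low counts through the 3 DPPJ libraries, with 1 or 0 MHPJ libraries above its cutoff, so that a difference was built into being tested. Only DRD2 and PRLR were above the cutoff in all 6 libraries.

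PRLR had 19, 19 and 13 reads in MHPJ, low counts that were still above the cutoff. It was higher in DPPJ by 4.57 ± 0.41 on the log2 scale (SE; edgeR adjusted p = 0.00996), and the pooled reads gave a 27.3-fold ratio with a 95% counting interval of 20.7 to 36.8. For GH the log2 difference was 13.72 ± 2.14 (SE; edgeR adjusted p = 0.0231). For PRL it was 14.85 ± 1.48 (SE; edgeR adjusted p = 0.0109). The pooled ratios, scaled by library size, were 18496 for GH (13731 to 25557) and 35130 for PRL (20938 to 64258), and these intervals cover counting error only. GHRHR, POU1F1 and GHSR had 4, 3 and 1 reads in all of MHPJ, so that their log2 differences of 10.90 ± 0.84, 10.99 ± 0.96 and 7.64 ± 0.74 (SE) depend on the prior count that edgeR adds. Pooled over the libraries they were 2272 (887 to 8339), 2526 (864 to 12253) and 272 (48.5 to 10777) times as abundant in DPPJ.

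DRD2 was higher in DPPJ by 2.95 ± 1.40 on the log2 scale (SE), which did not pass the threshold (edgeR adjusted p = 0.204). It passed with DESeq2 (log2 difference 2.92) and with limma on log2(RPKM + 1) (3.64) and on log2(RPKM + 0.1) (4.65). In edgeR it passed with the replicate number as a block, and without MHPJ replicate 3 (6.40), the library with 371 reads. The size of the DRD2 difference thus moved with a single library.

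The same question was asked at the adult stage. In the adult pituitary 2.93% of tested genes were DEGs, and PRLR was the only DEG among the 7, lower in DPPA than in MHPA at -1.57 ± 0.59 on the log2 scale (SE; edgeR adjusted p = 0.515), with no overlap between the groups, as for 17.8% of tested genes. Same-numbered adult libraries of the breeds deviated together, and in a fit with that number as a block the PRLR difference was -1.40 (edgeR adjusted p = 0.446) and none of the 7 genes was a DEG. The call was likewise lost without DPPA replicate 1 (-1.25), DPPA replicate 2 (-1.68), DPPA replicate 3 (-1.82) or MHPA replicate 1 (-0.85), and without both DPPA replicate 1 and MHPA replicate 1 the difference was -0.53, under the fold threshold. GH differed by 0.02 ± 2.58, PRL by -1.63 ± 2.66, POU1F1 by -0.28 ± 2.27, GHRHR by 0.15 ± 2.0, DRD2 by -0.31 ± 1.45 and GHSR by -1.0 ± 1.56 on the log2 scale (SE), so that the spread between libraries was wider than any of these differences.

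With both low adult libraries left out, 2 libraries of each breed remained and GHSR passed in place of PRLR, among 866 of 14394 tested genes. It was lower in DPPA, at -1.08 on the log2 scale (edgeR adjusted p = 0.161), from 3.05 and 2.04 RPKM in DPPA against 7.08 and 5.33 RPKM in MHPA. PRL was at -1.66 and did not pass (edgeR adjusted p = 0.228), and GH, at -0.0063, did not differ beyond the spread between libraries.

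**Figure D2:**
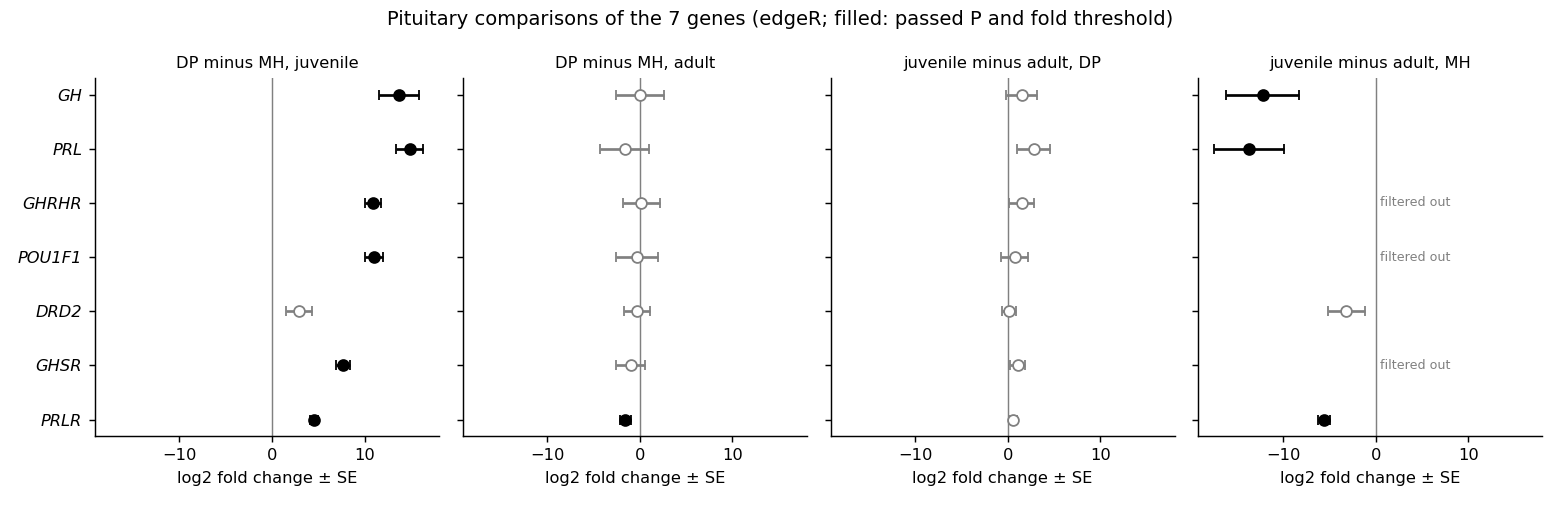
Log2 fold change with its standard error for the 7 genes in 4 pituitary comparisons, from edgeR's quasi-likelihood test on 3 libraries per group. Filled points passed the P and fold thresholds; the juvenile breed comparison has 6 of them to the right of 0 and the MH stage comparison has 3 to the left of 0, while GHRHR, POU1F1 and GHSR were removed there by the filter on low counts.

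The stage comparisons asked whether expression changed with age within a breed. In DPs 3.56% of tested genes were DEGs between DPPJ and DPPA and none of the 7 genes was, by edgeR, DESeq2 or limma. The log2 differences, juvenile minus adult, were 1.50 ± 1.64 for GH, 2.79 ± 1.75 for PRL, 1.49 ± 1.34 for GHRHR, 0.76 ± 1.45 for POU1F1, 1.10 ± 0.81 for GHSR, 0.59 ± 0.40 for PRLR and 0.14 ± 0.76 for DRD2 (SE). Every DPPJ library was above every DPPA library for GH, PRL and GHSR, as for 24.2% of tested genes in either direction. Without DPPA replicate 1, PRL was a DEG, higher in DPPJ by 2.20 on the log2 scale (edgeR adjusted p = 0.23), and GH was higher by 0.91 (edgeR adjusted p = 0.252), under the fold threshold. Without DPPA replicate 2, DRD2 was a DEG at 1.49 (edgeR adjusted p = 0.33).

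In MHs 7.74% of tested genes were DEGs between MHPJ and MHPA. GH, PRL, PRLR and DRD2 were tested, and GHRHR, POU1F1 and GHSR, above the cutoff of the filter on low counts in only 2 of the 6 libraries, were not. All that passed were lower in MHPJ, with log2 differences of -12.20 ± 3.94 for GH, -13.67 ± 3.77 for PRL and -5.56 ± 0.66 for PRLR (SE; edgeR adjusted p = 0.391, 0.365 and 0.188). DRD2 was at -3.15 ± 1.98 and did not pass. The GH call was lost without MHPJ replicate 1 (-11.58) or replicate 3 (-11.65), and DRD2 was a DEG without MHPJ replicate 3 (-6.59). PRLR alone separated the 3 juvenile from the 3 adult libraries, as did 17.5% of tested genes, because GH and PRL were as low in MHPA replicate 1 as in MHPJ. Without MHPA replicate 1 the PRLR difference was -4.83 (edgeR adjusted p = 0.0385), and 6 of the 7 genes were DEGs, beside 2308 of all 14897 tested genes. GHRHR, POU1F1 and GHSR had 0 MHPJ libraries above the cutoff of the main fit, so that a difference was built into their being tested.

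The difference between the stages in the breed effect was tested over the 12 pituitary libraries, where 15.7% of genes passed the threshold. PRLR had the lowest adjusted p of the 7 genes, at 6.15 ± 0.78 on the log2 scale (SE; edgeR adjusted p = 0.106). GH, PRL, GHRHR, POU1F1 and GHSR passed as well, with edgeR adjusted p between 0.153 and 0.168. DRD2 did not pass (3.27 ± 2.19, edgeR adjusted p = 0.399) but did so without MHPJ replicate 3 (6.75, edgeR adjusted p = 0.236). Without DPPA replicate 1 and MHPA replicate 1, an analysis chosen after seeing the data, the PRLR value was 5.11. The same 6 genes passed in it, beside 2663 of all 15422 tested genes. The difference between the tissues in the breed effect was likewise tested in the juvenile libraries after seeing the data, where 22% of all genes passed. PRLR was at 4.97 on the log2 scale there and passed (edgeR adjusted p = 0.0125), while GHRHR, POU1F1 and GHSR were above the low-count cutoff in DPPJ alone among the juvenile groups, so that a difference was built into their being tested.

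Markers of other cells moved with these differences. Of the 6 measured genes of other anterior pituitary cells, 5 were DEGs above MHPJ in DPPJ, as were 7.6% of all tested genes. Among them were POMC, the precursor gene of corticotropin, at 11.97 ± 2.25, and TSHB, at 9.85 on the log2 scale. In MHPJ POMC was at 0, 5.62 and 0 RPKM, FSHB at 0, 0.12 and 0, GNRHR at 0.08, 0.11 and 0, and TSHB at 0 throughout. These genes passed the filter on low counts through DPPJ, so that a difference was built into their being tested. The 8 listed glial and myelin genes found in the files, of 10, summed to between 2798 and 6478 RPKM in MHPJ against 123 to 3209 in DPPJ, and to 6776 and 14317 RPKM in replicate 1 of DPPA and MHPA against 67.0 to 258 in the other adult libraries. MAG and MBP, both of myelin, were DEGs with lower expression in DPPJ, at -3.44 and -2.58 on the log2 scale, and 0 of the 7 tested genes of the list were higher in DPPJ. RAX, found but not tested, went the other way, with 3.55, 1.18 and 0.35 RPKM in DPPJ against 0.04, 0.12 and 0.05 in MHPJ. The 7 neuronal genes found, of 8, summed to between 135 and 1262 RPKM in MHPJ against 389 to 917 in DPPJ, and 0 of the 5 tested were DEGs. AVP, the vasopressin gene carried by nerve endings in the posterior lobe, was at 2106 RPKM in DPPA replicate 1 and at 477 RPKM in DPPJ replicate 2 but between 0 and 0.12 RPKM in MHPJ. MHPJ replicate 2 stood apart from MHPJ replicates 1 and 3 in several of these markers. Its neuronal sum was 135 RPKM against 1198 and 1262, its GFAP 26.5 RPKM against 1218 and 892, and its sum of the 5 marrow genes found, of 6, was 273 RPKM against 6.93 and 9.51.

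**Figure D3:**
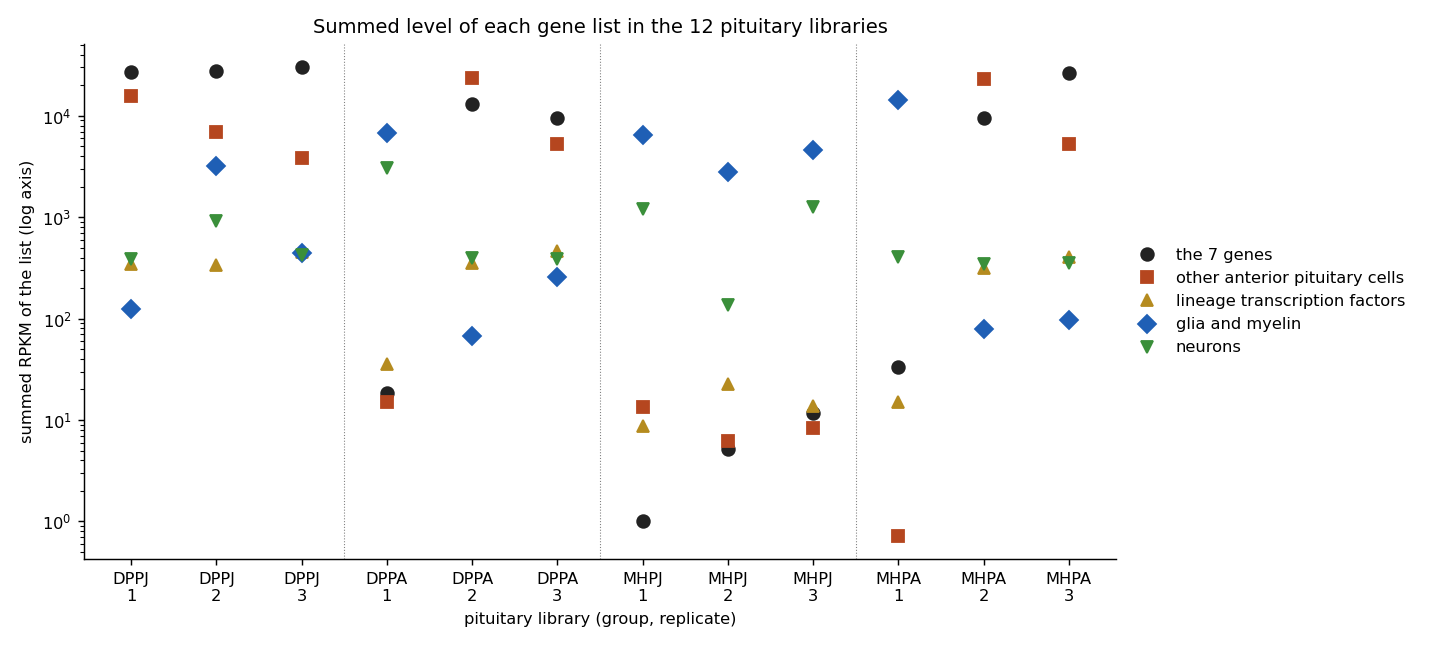
Summed RPKM of the 7 genes and of 4 lists of other genes in each of the 12 pituitary libraries, on a log axis. The 7 genes sum to between 9418 and 30050 RPKM in the same 7 libraries in which genes of other anterior pituitary cells are high, and to at most 33.4 RPKM in the 5 libraries in which the glial and myelin sum is between 2798 and 14317; DPPJ replicate 2 has high sums of both.

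A high glial sum did not go with low hormones in every library. DPPJ replicate 2 had a glial and myelin sum of 3209 RPKM, with GFAP, the intermediate filament of astrocytes, at 1393 RPKM, and yet its GH was at 17634 RPKM and its POMC at 6511 RPKM. MHPJ replicate 2, with a glial and myelin sum of 2798 RPKM, had 3.36 RPKM of GH and 5.62 RPKM of POMC. The part of tissue composition in the breed and stage differences of the 7 genes was not tested, and within the juvenile stage breed and composition cannot be told apart, since no MHPJ library had high anterior pituitary genes.

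The genes around the 7 were followed in lists. Of the 8 lineage transcription factors, 6 were tested between DPPJ and MHPJ. Among the DEGs of the list were PITX1, LHX3 and NEUROD4, which act in the making of pituitary cells and were above MHPJ by 5.75, 9.06 and 7.69 on the log2 scale. The median of the tested genes of the list was 6.72 beside -0.07 for all genes. In MHPJ LHX3 was at 0.04, 0.05 and 0 RPKM and NEUROD4 at 0.13, 0.31 and 0. Both passed the filter on low counts through DPPJ, so that a difference was built into their being tested.

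Among the 8 other receptors of somatotrophs and lactotrophs, 6 were tested. ESR1, the estrogen receptor, and TRHR, the receptor of thyrotropin-releasing hormone, were higher in DPPJ by 6.08 and 4.85 on the log2 scale, and the somatostatin receptor gene SSTR1 was lower, at -2.80. SSTR1 was low in every pituitary library, between 0 and 1.23 RPKM. The retinoid receptor gene RXRG was between 2.15 and 16.5 RPKM in all 12 pituitary libraries and was not a DEG in any pituitary comparison of breeds or stages.

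Of the 6 upstream ligands, 5 were in the files and 3 were tested between DPPJ and MHPJ. VIP, a peptide that stimulates prolactin secretion, was lower in DPPJ, at -8.16 ± 1.08 on the log2 scale (SE; edgeR adjusted p = 0.0167), from 0.12, 0.08 and 0.07 RPKM in DPPJ against 8.68, 49.7 and 9.39 in MHPJ. With DPPJ so near the floor, VIP passed the filter on low counts through MHPJ, and the size of its difference depends on the prior count. GHRH, the ligand of GHRHR, was at 17.5 RPKM in DPPA replicate 1, at 0.51 in DPPA replicate 3 and at 0 in the other 10 pituitary libraries. SST, the somatostatin gene, was at 84.2 RPKM in DPPA replicate 1, 39.3 in DPPJ replicate 2, 69.1 and 24 in MHPJ replicates 3 and 1, and 4.59 in MHPA replicate 1, and at most 0.06 in the others. The 5 libraries with SST had neuronal sums between 401 and 3091 RPKM, and the other 7 had sums between 135 and 425 RPKM.

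Of the 6 measured genes of growth hormone signalling, CISH, a feedback inhibitor that growth hormone and prolactin induce, was higher in DPPJ than in MHPJ by 2.44 ± 0.37 on the log2 scale (SE; edgeR adjusted p = 0.0217). Its RPKM was 7.24, 6.27 and 6.37 in DPPJ and 1.25, 1.30 and 0.66 in MHPJ. In adults CISH was at 1.18, 4.49 and 5.71 RPKM in DPPA and at 0.17, 7.35 and 7.66 in MHPA. It was thus low in the same libraries as the hormones, in both breeds. GHR, the growth hormone receptor, was higher by 1.15 and IGF1, the growth factor that growth hormone induces in many tissues, was lower, at -1.49, while JAK2, STAT5A and STAT5B were not DEGs. In MHs, VIP (8.24 on the log2 scale), SSTR1 (2.83) and IGF1 (1.34) were among the DEGs with higher levels in MHPJ than in MHPA, and ESR1 (-5.53) among those with lower levels. VIP was at 0.04, 0.07 and 0.15 RPKM in MHPA, so that the size of its difference depends on the prior count here as well. None of the tested genes of the signalling list, the lineage list and the list of 8 other receptors was a DEG in edgeR between DPPA and MHPA or between DPPJ and DPPA.

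Levels were then expressed relative to POU1F1 in the same library, which removes library size, in the 7 libraries with at least 10 reads of both genes. GH was between 81.1 and 195 times POU1F1 per length, a 2.41-fold range. It was 128, 195 and 191 times POU1F1 in DPPJ, 95.0 and 114 times in DPPA replicates 2 and 3, and 85.8 and 81.1 times in MHPA replicates 2 and 3. PRL ranged further, from 23.8 in each of the same DPPA libraries to 132 in DPPJ replicate 1, a 5.55-fold range.

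Among the receptors, GHRHR was between 0.366 and 1.91 times POU1F1, DRD2 between 0.259 and 0.915 times, PRLR between 0.0692 and 0.196 times and GHSR between 0.0285 and 0.0921 times. GH, PRLR and GHSR kept the narrowest ranges, at 2.41-, 2.83- and 3.23-fold. MHPA replicate 2 had the highest ratios of DRD2, GHSR and PRLR, and DPPJ replicate 2 the highest of GH and GHRHR. These ratios are descriptions of 7 libraries and were not tested.

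**Figure D4:**
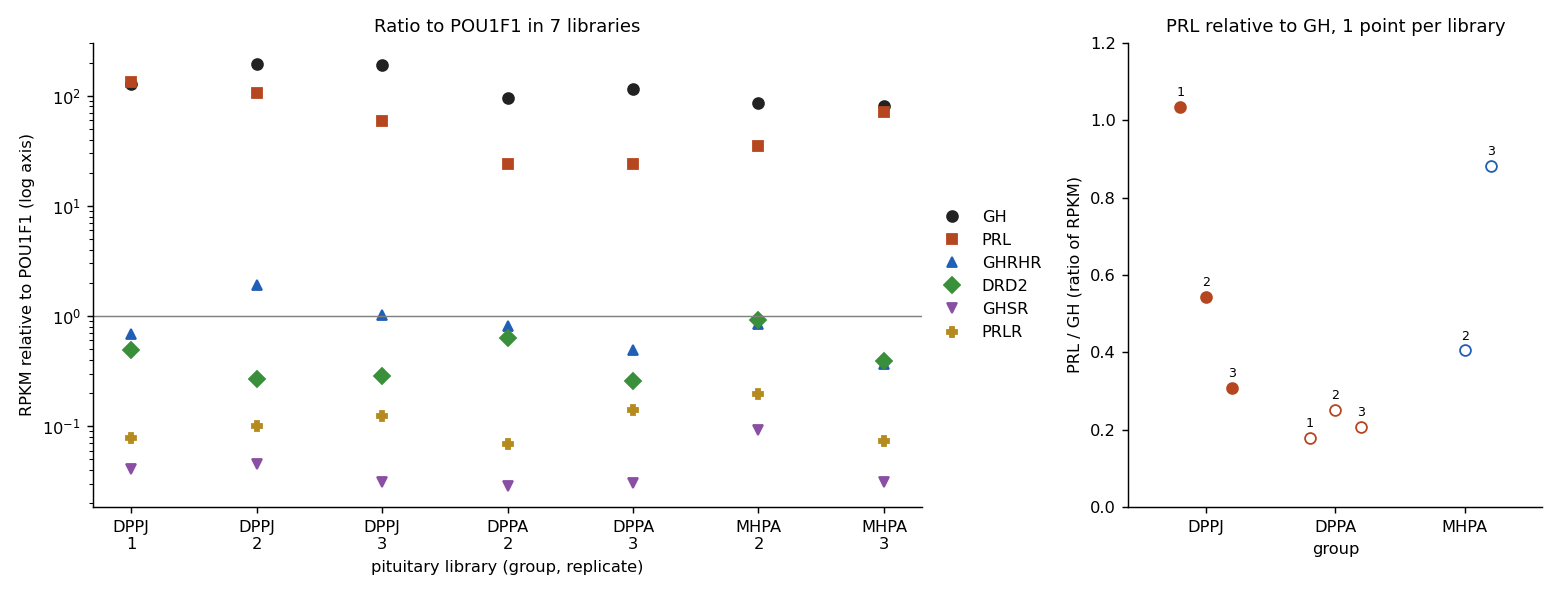
Left, RPKM of 6 genes relative to POU1F1 on a log axis in the 7 pituitary libraries with at least 10 reads of both genes; right, the ratio of PRL to GH RPKM per library, numbered by replicate. GH stays between 81.1 and 195 times POU1F1, and the PRL to GH ratio is between 0.308 and 1.03 in DPPJ and between 0.179 and 0.251 in DPPA.

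The balance of the hormones themselves was compared between DPPJ and DPPA, where all 6 libraries had at least 10 reads of both. The ratio of PRL to GH RPKM was 1.03, 0.544 and 0.308 in DPPJ and 0.179, 0.251 and 0.209 in DPPA. On the log2 scale this was -0.84 ± 0.87 against -2.25 ± 0.24 (SD, n = 3 each), a difference of 1.40, and the exact two-sided permutation test gave p = 0.1, the smallest that 3 libraries against 3 allow. DPPA replicate 1, with 29 reads of PRL and 142 of GH, had nearly the same ratio as the other DPPA libraries, although it held so few hormone reads. In MHPA replicates 2 and 3 the ratio was 0.405 and 0.882, so that it reached the DPPJ range in adults of the other breed.

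In the long bone epiphysis PRLR was the only one of the 7 genes with at least 17 reads in every library. PRLR had 0.81, 1.42 and 0.39 RPKM in DPLBJ, 0.69, 0.27 and 0.75 in DPLBA, 1.30, 1.27 and 1.42 in MHLBJ, and 10.4, 1.18 and 1.31 in MHLBA. MHLBA replicate 1 stood apart with 546 reads, against 17 to 91 in the other 11 long bone libraries.

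Reads of the hormones were found in long bone libraries at low numbers. GH had 11, 137 and 14 reads in DPLBJ, 70, 4 and 429 in DPLBA, 4, 56 and 19 in MHLBJ and 25, 4 and 10 in MHLBA. PRL had 1, 151 and 23 reads in DPLBJ, 40, 2 and 176 in DPLBA, 2, 11 and 5 in MHLBJ and 10, 6 and 4 in MHLBA. The libraries with the most GH reads, DPLBA replicate 3 and DPLBJ replicate 2, were also those with the most PRL reads. DPLBA replicate 3 further had 80.2 RPKM of POMC and 22 reads of GHRHR, and DPLBJ replicate 2 had 10.3 RPKM of POMC. The source of these reads was not tested.

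The other 4 genes were rarer still. GHRHR had 0 to 22 reads, POU1F1 0 to 7, DRD2 0 to 29 and GHSR 0 to 5 in any long bone library. GHRHR had 0 reads in all of MHLBA, and GHSR had 0 in all of DPLBA and MHLBA. None of the 4 passed the filter on low counts in a comparison between long bone groups.

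**Figure D5:**
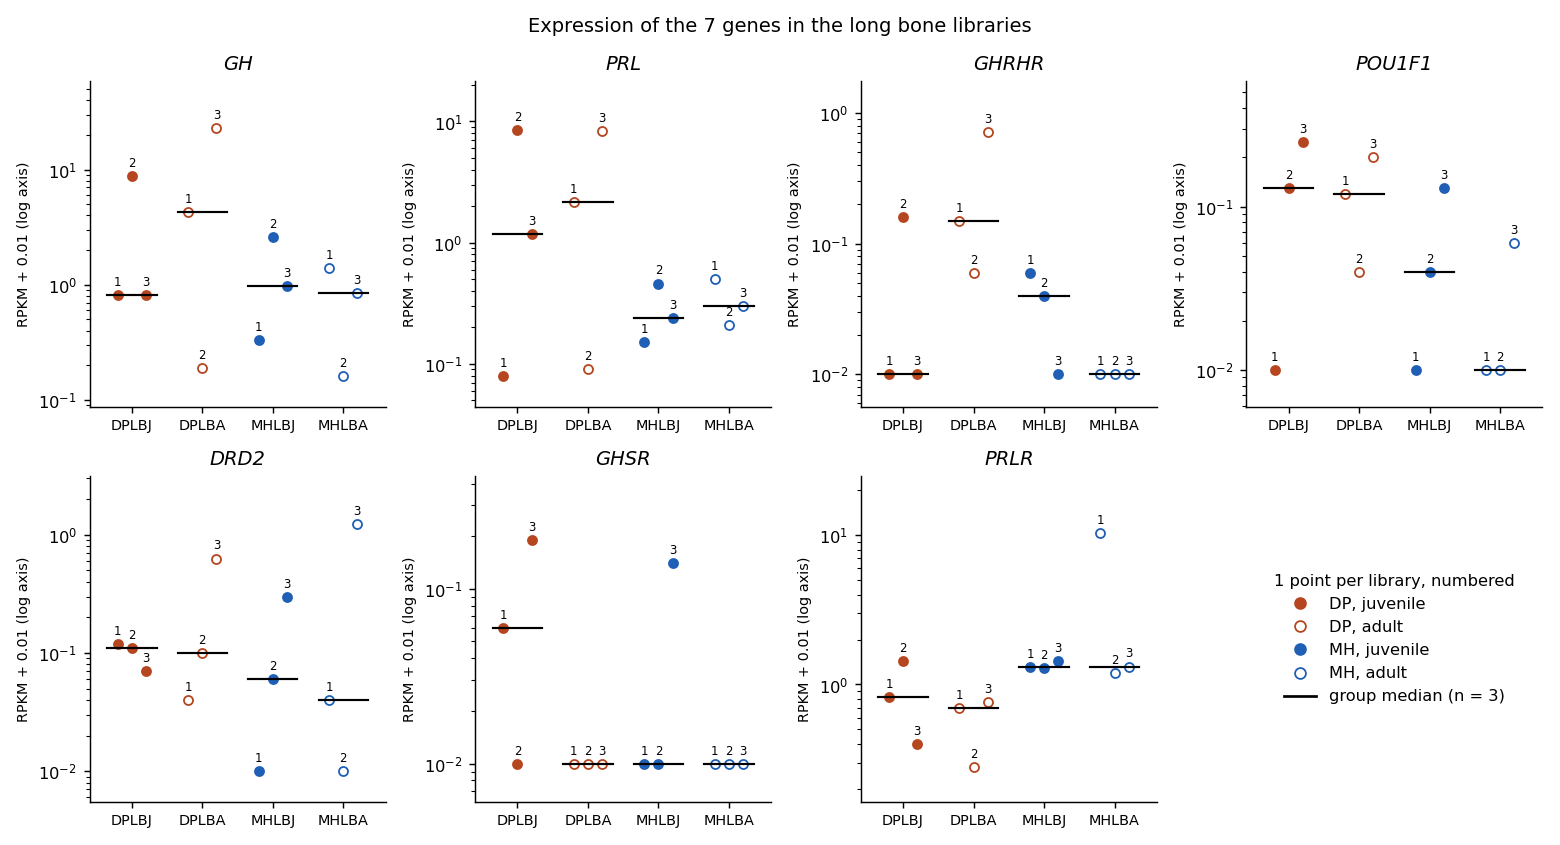
Level of each of the 7 genes in the 12 long bone libraries, as RPKM + 0.01 on a log axis; points are libraries with their replicate numbers and black bars are group medians (n = 3). GH and PRL are highest in DPLBJ replicate 2 and DPLBA replicate 3, at 8.29 to 22.9 RPKM, and PRLR is highest in MHLBA replicate 1, at 10.4 RPKM.

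Between the breeds in the long bone, 13.8% of tested genes were DEGs at the juvenile stage and 18.3% at the adult stage. In juveniles GH and PRLR were tested and neither was a DEG, at 1.62 ± 1.18 and -0.40 ± 0.58 on the log2 scale (SE). Without DPLBJ replicate 2, GH was at -0.62. In adults PRLR was lower in DPLBA than in MHLBA, at -3.48 ± 1.14 (SE; edgeR adjusted p = 0.124), with no overlap between the groups, as for 23% of tested genes. PRL was higher in DPLBA by 3.13 ± 1.34 (SE; edgeR adjusted p = 0.203), although its libraries overlapped, and GH was at 3.18 ± 1.50 and did not pass.

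Each of these adult calls was lost without a single library. Without MHLBA replicate 1, PRLR differed by -0.99 (edgeR adjusted p = 0.341), and without DPLBA replicate 3, PRL differed by 1.44 (edgeR adjusted p = 0.621). The PRLR call was also lost without DPLBA replicate 1 (-3.60) or replicate 2 (-3.13), and the PRL call without DPLBA replicate 1 (3.40), MHLBA replicate 2 (2.76) or MHLBA replicate 3 (2.92). GH was a DEG without DPLBA replicate 2 (3.77) or MHLBA replicate 1 (4.50). Over the same libraries, bone and cartilage genes summed to between 2880 and 7667 RPKM in DPLBA against 279 to 1482 in MHLBA, and marrow genes to between 373 and 485 against 83.6 to 131, and their part in these differences was not tested. Between the stages in the long bone, none of the 7 genes was a DEG in DPs or in MHs by edgeR, DESeq2 or limma, where 3.14% and 2.91% of tested genes were. The largest of these differences was PRLR in MHs, at -2.31 ± 1.06 on the log2 scale (SE; edgeR adjusted p = 0.998), and without MHLBA replicate 1 it was 0.16, whereas it passed without MHLBA replicate 2 (-2.80) or replicate 3 (-2.80).

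The tissues were compared within each breed and stage. In juvenile DPs all 7 genes were higher in the pituitary than in the long bone, where 36.8% of tested genes were DEGs and 18.3% were higher in the pituitary. The log2 differences ran from 3.28 ± 0.56 for PRLR through 5.32 ± 0.85 for GHSR, 8.36 ± 0.52 for DRD2, 9.37 ± 0.68 for POU1F1, 10.82 ± 0.95 for GHRHR and 11.27 ± 1.76 for PRL to 11.99 ± 1.46 for GH (SE; edgeR adjusted p at most 0.00612). GHRHR, POU1F1, DRD2 and GHSR passed the low-count filter through DPPJ alone. PRL had 2 and GH and PRLR 3 DPLBJ libraries above its cutoff.

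In adult DPs, where 39.1% of genes were DEGs, 5 of the 7 were tested and all of those were higher in the pituitary. They were GH (log2 difference 9.21 ± 2.68), PRL (8.49 ± 2.53), GHRHR (6.94 ± 1.84), DRD2 (6.80 ± 1.25) and PRLR (3.41 ± 0.55, SE). With DPPA replicate 1 in the comparison, DRD2 and PRLR alone had every pituitary library above every long bone library, and groups did not overlap for 53.3% of tested genes. Without it the values of these 5 were between 3.74 and 9.80, and all 7 genes were tested and were DEGs. So were 6173 of all 15038 tested genes. POU1F1 and GHSR had 0 DPLBA libraries above the cutoff of the main fit, so that a difference was built into their being tested. PRL did not pass without DPLBA replicate 1 (8.23, edgeR adjusted p = 0.12).

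In adult MHs 27.1% of genes were DEGs. GH (12.41 ± 3.36) and DRD2 (6.64 ± 2.16, SE) were higher in the pituitary, and PRLR was at 1.54 ± 1.14 and did not pass. Without MHLBA replicate 1 the PRLR difference was 3.99 (edgeR adjusted p = 0.0215), and DRD2, at 6.18, no longer passed (edgeR adjusted p = 0.156). Without MHPA replicate 1, GH was at 12.99 and DRD2 at 7.25, and 6 of the 7 genes were DEGs, beside 4351 of all 14703 tested genes. PRL, GHRHR, POU1F1 and GHSR had 0 MHLBA libraries above the cutoff of the main fit, so that a difference was built into their being tested.

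Juvenile MHs gave another picture, with 32.7% of genes as DEGs. GH did not differ beyond the spread between libraries (-0.18 ± 1.59 on the log2 scale, SE), with 0, 41 and 2 reads in MHPJ against 4, 56 and 19 in MHLBJ. PRLR was lower in the pituitary than in the long bone, at -1.71 ± 0.38 on the log2 scale (SE; edgeR adjusted p = 0.0254), with all 3 MHPJ libraries below all 3 of MHLBJ, as groups did not overlap for 47.9% of tested genes. DRD2 was higher in the pituitary by 5.20 ± 1.88 (SE; edgeR adjusted p = 0.0828), and without MHPJ replicate 3 by 1.73, which did not pass. It had passed the filter on low counts through the 3 MHPJ libraries, with 0 MHLBJ libraries above the cutoff. The DRD2 call was also lost without MHLBJ replicate 1 (4.69) or replicate 2 (4.85), and GH was a DEG, lower in the pituitary, only without MHPJ replicate 2 (-4.32, edgeR adjusted p = 0.0429).

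Genes that receive the growth hormone signal were measured in both tissues. In all 4 tissue comparisons GHR, JAK2, STAT5A and IGF1 were DEGs with lower levels in the pituitary than in the long bone, GHR at between -4.78 and -2.18 and IGF1 at between -4.86 and -2.83 on the log2 scale. Between the breeds, the long bone DEGs of the receptor, ligand, lineage and signalling lists included GHR (-1.44) in juveniles and VIPR2 (1.91) and PITX1 (-4.04) in adults. Between the stages those of the same 4 lists included PITX1 (3.06) and VIPR2 (-2.02) in DPs.

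Last, genes with the most similar pattern over the 12 pituitary libraries were listed for each gene, by Pearson's r of log2(CPM + 1) among 12890 genes with a symbol and a mean of at least 1 CPM. The libraries fall into separate sets, so that r mainly measures how well a gene follows that split, and it is given with no p. For each of the 7 genes the list was also made by log2(RPKM + 1) and by Spearman's rho. In 11 of these alternative lists most of the 3 genes were not those named here, so that the neighbours depend on the measure. The gene the files list as SF-1, described there as steroidogenic factor 1, a transcription factor of gonadotrophs, was among the 3 closest genes of GH (r = 0.990), PRL (0.993), GHRHR (0.992), POU1F1 (0.994) and GHSR (0.982). NEUROD4, a neurogenic transcription factor of the pituitary, was closest to POU1F1 (r = 0.995, Spearman's rho 0.894). VIL1 and SEC16B were the other close genes of GH (r = 0.993 and 0.991), RPP14 and NR0B1 of PRL (0.989 and 0.988), CHRNA9 and RAB19 of GHRHR (0.988 and 0.986), FAM189A2 of POU1F1 (0.991), and PRDM4 and VDR of GHSR (0.984 and 0.980).

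DRD2 and PRLR had other neighbours, with lower r. For DRD2 they were RIOK3 (0.963), XYLB (0.953) and STAT2 (0.951). For PRLR they were STXBP4 (0.968), ENO4 (0.951) and ARMC4 (0.945), the last a component of the motile cilium. Between the 7 genes themselves, r was at least 0.966 for each pair of GH, PRL, GHRHR, POU1F1 and GHSR, between 0.841 and 0.874 for DRD2 with these 5, and between 0.598 and 0.610 for PRLR with them.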

How the data were processed

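Total RNA was depleted of ribosomal RNA and sequenced from pituitary and long bone epiphysis, with 3 libraries per group. The authors deposited whole-number read counts per gene, not normalized, and RPKM values; horse genome EquCab 3.0 is named in the study's methods. Their sources differ on instrument, read layout and mapper (TopHat2 in the processing notes, Salmon in the methods). Per the file headers both tables carry Ensembl gene identifiers, symbols and gene lengths. The 65 RPKM values of the 7 genes with at least 50 reads were within 2% of the value that their reads give, with library totals 1.23 to 1.44 times the reads counted on genes.

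Groups came from the sample titles. Counts of all genes were fitted in edgeR 4.0.16 (R 4.3.3) with TMM normalization, filterByExpr with a minimum count of 10 and the quasi-likelihood test, each pair of groups alone. DEGs had P under 0.05 before adjustment and changed by more than 2-fold, and p-values were adjusted by Benjamini-Hochberg over all tested genes. Log2 fold changes are DP minus MH, juvenile minus adult or pituitary minus long bone. Ratios of pooled reads have exact 95% intervals, and a count of 0 was read as at most 3 reads. Intervals and this floor cover counting error only. DESeq2 1.42.0, limma 3.58.1 on log2(RPKM + 1) and log2(RPKM + 0.1), fits without TMM, without the filter, with all libraries of the tissue, with a replicate block and without each library in turn were alternatives. The PRL to GH ratio was compared by an exact permutation test (scipy 1.17.1). The scripts were tested on simulated data.

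Same-numbered libraries of the compared groups had a correlation of deviations over 0.1 in every pair only in the adult pituitary (0.633, 0.507 and 0.349). For replicates 2 and 3 there, the best differently numbered library came close, at 0.499 and 0.338. Pairing by number is therefore not established, and the labels state none. No pair of libraries in a group was a duplicate.

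The 7 genes were always named, genes of the lists fixed for this work were counted and some of them named as DEGs or as marker values, and the 3 most similar genes with a symbol were named for each of the 7. RXRG, GHRH, SST and the marker genes that were not DEGs were chosen for naming once their values were known. The 7 genes and the lists were chosen with earlier results of these data known. Listed genes not found by symbol were TH, SOCS2, IGFALS, CGA, LHB, NR5A1, OLIG1, OLIG2, NEFL, COL1A1 and ELANE. NR5A1 is the gene of steroidogenic factor 1, which was present under the symbol SF-1 and was not counted with the other anterior pituitary cells. Some listed genes are not reported here. No sequences or coordinates were used.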

Additional observations from a re-analysis of the deposited data

Results flagged for a closer look

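The effect of breed differed between the stages in the pituitary for 6 of the 7 genes, by edgeR's interaction test over 12 libraries at P under 0.05 before adjustment and a change of more than 2-fold. The interaction, (DPPJ minus MHPJ) minus (DPPA minus MHPA), was 13.77 on the log2 scale for GH, 16.52 for PRL, 10.77 for GHRHR, 11.31 for POU1F1, 8.66 for GHSR and 6.15 for PRLR. Adjusted p-values from edgeR were between 0.106 and 0.168, so that none passed after correction, and 15.7% of all genes passed the unadjusted threshold. In MHPJ the reads of GHRHR, POU1F1 and GHSR add up to 4, 3 and 1, and these values depend on the prior count of the fit.

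In the juvenile libraries the effect of breed differed between pituitary and long bone, in a test added after seeing the data, in which 22% of all genes passed the same thresholds. The interaction was 12.17 on the log2 scale for GH, 11.16 for PRL and 9.71 for POU1F1 (edgeR adjusted p = 0.0239, 0.0239 and 0.025). It was 4.97 for PRLR (edgeR adjusted p = 0.0125), 9.66 for GHRHR (0.0606) and 6.76 for GHSR (0.069). DRD2 was at 3.15 and did not pass (edgeR adjusted p = 0.362). Among the juvenile groups GHRHR, POU1F1 and GHSR were above the cutoff of the low-count filter in DPPJ alone, so that a difference was built into their being tested, and the size of their values depends on the prior count.

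Both tests use MHPJ, in which the 6 genes of other anterior pituitary cells summed to between 6.18 and 13.5 RPKM and the glial and myelin genes to between 2798 and 6478 RPKM. The part of tissue composition in these differences was not tested.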

How the results depend on the processing

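Of 441 results for the 7 genes under other settings, 384 were kept, 14 newly passed, 19 no longer passed and 13 reversed. The other 11 were lists of most similar genes, made by another measure, in which most of the genes named had changed. Lists that held were counted with the 384 and have no direction or threshold. The rest of the 384 kept their direction and their side of the threshold. Of 402 values without a library, 347 were kept and 26 reversed. The number of the 7 genes that were DEGs in the juvenile pituitary between breeds was 6, and 6 to 7 without a library in turn. Where a cause is not part of the setting itself, it was not tested.

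Under a Benjamini-Hochberg threshold of 0.05 the number of DEGs among the 7 was 0 in the adult pituitary (from 1), 0 in the adult long bone (from 2), 0 in the MH pituitary between stages (from 3), 1 between tissues in juvenile MHs (from 2), 0 in adult MHs (from 2) and 0 for the interaction (from 6). Without the filter on low counts it was 1 in the juvenile long bone (from 0), 4 in the adult long bone, 6 in the MH pituitary between stages, 1 in the MH long bone between stages (from 0) and 6 between tissues in adult MHs. With all libraries of a comparison's tissue or design fitted together it was 1, 1, 6, 1 and 6 in the same order, and 1 between tissues in juvenile MHs. With limma on log2(RPKM + 1) and log2(RPKM + 0.1) it was 0 and 1 in the adult long bone and 0 and 1 between tissues in juvenile MHs, where DESeq2 gave 1.

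The replicate number as a block gave 0 in the adult pituitary, 1 in the adult long bone and 3 between tissues in adult DPs (from 5), 7 in the juvenile pituitary and 2 in the MH pituitary between stages, and left the count unchanged elsewhere. By their labels the libraries share only a number: over all 12 comparisons 9 of 36 same-numbered pairs had a correlation of deviations over 0.1.

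Differences near 0 reversed. In the adult pituitary GH was at -0.24 without TMM, -0.0035 without the filter and -0.0063 without DPPA and MHPA replicates 1, GHRHR at -0.15 without TMM and -0.061 with limma on log2(RPKM + 1), and DRD2 at 0.47 with the block and 0.20 and 0.60 with limma. PRL in the DP long bone between stages was at -0.073 without TMM, -0.0095 without the filter, -1.51 with the block, and -0.17 and -0.29 with limma.

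Leaving out each library in turn, the number of DEGs among the 7 ranged from 0 to 1 in the adult pituitary, the juvenile long bone, the DP pituitary and the MH long bone between stages, 0 to 2 in the adult long bone, 3 to 6 in the MH pituitary between stages, 1 to 3 between tissues in juvenile MHs and 2 to 6 in adult MHs. Log2 differences changed sign over these ranges in the adult pituitary for GH (-0.69 to 1.07), PRL (-2.50 to 0.28), GHRHR (-1.21 to 0.74), POU1F1 (-1.15 to 0.83) and DRD2 (-1.67 to 0.14). They did so for DRD2 in the DP pituitary between stages (-0.31 to 1.49), and in the long bone between stages for GH (-3.44 to 0.82) and PRL (-2.46 to 1.72) in DPs and for GH (-0.70 to 1.62) and PRLR (-2.80 to 0.16) in MHs. GH also changed sign between breeds in the juvenile long bone (-0.62 to 2.61) and between tissues in juvenile MHs (-4.32 to 0.91). Where a group kept fewer libraries, their spread was pooled with that of the other group.

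Scaling moved all genes together. In the adult pituitary the median log2 difference of all genes was -0.01 with TMM and -0.22 without, and the share of DEGs higher in DPs was 59.9% and 27.3%. In the juvenile pituitary that share was 37.5%, and 44.3% without TMM. With limma on log2(RPKM + 1), which changes the scale and the test as well, it was 60.7%. With 0 to 4 reads in MHPJ, the size of the GHRHR, POU1F1 and GHSR differences is limited by depth.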
